A study of Mus musculus with 36 samples.

Results

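The comparison described here sets epididymal adipocytes against bone marrow adipocytes of 6-month-old mice on chow, as 3 arrays from each depot. These 6 of the 36 arrays of the series were taken by their titles, and the difference is the epididymal minus the bone marrow value on the log2 scale. The mice were wild-type C57BL/6J males on standard chow, and the other groups used below are chow mice at 14 and 18 months and leptin-deficient ob/ob males at 6 months, again with 3 arrays a depot. Arrays of mice on high-fat diet at 6 and 14 months entered the same model, where they add to the estimate of the spread, and are not described. Epididymal adipocytes were floated from minced fat pads after digestion with collagenase, and bone marrow adipocytes were floated by centrifugation from marrow flushed out of femurs and tibias, after lysis of red cells. Each array carried RNA pooled from several mice, so the pool is the unit of each test, and although both depots were taken from the same mice by the methods, it is not stated whether pools of the same number held the same animals. In RNA from bulk preparations, fewer cells of a type cannot be told apart from less RNA per cell.

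White adipocytes hold triglyceride in a large droplet coated by perilipins, take up and make fatty acids, release them by lipolysis, and secrete hormones such as leptin and adiponectin. Bone marrow adipocytes lie among blood-forming cells, where precursors of neutrophils, red cells, platelets and B cells divide. A fat pad in turn holds vessels, mesothelium and resident macrophages beside its adipocytes.

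The labelled cell type was checked on 16 measured markers of mature adipocytes. Their mean on an array was 12.55, 12.56 and 12.56 in epididymal cells, against 7.35, 7.36 and 7.11 in bone marrow cells. The 95th percentile of 1210 probe sets for odorant and vomeronasal receptors, taken as background, lay at 5.28, 5.27 and 5.40 on the epididymal arrays and at 5.33, 5.16 and 5.00 on the bone marrow arrays. No adipocyte marker was at or below background in epididymal cells, while 3, 1 and 1 were so on bone marrow arrays 01, 02 and 03. On all 3 bone marrow arrays 1 of the 16 was at or below background. The other markers were thus above background in both depots on at least 1 array, with a far lower mean in marrow. There 20 neutrophil markers averaged 11.89, 11.81 and 11.79. The share of the marrow RNA that came from adipocytes was not measured.

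Before the results, arrays that stand apart from their own group need to be named, foremost epididymal array 01 and bone marrow array 01. Bone marrow array 02 lay apart in some lists. Megakaryocyte and platelet markers averaged 9.03 there, against 10.28 and 10.29 on bone marrow arrays 01 and 03. Immediate early genes averaged 10.12 there, against 9.09 and 9.13. List counts were not taken without bone marrow array 02. On epididymal array 01 the neutrophil markers averaged 8.60, against 5.82 and 5.74 on epididymal arrays 02 and 03, and 19 of 20 were highest there. Ngp, a granule protein of maturing neutrophils, read 11.12, 6.00 and 5.60 on the 3 epididymal arrays, and Retnlg, a resistin-like protein of neutrophils, read 10.55, 6.27 and 6.27. Erythroid markers were also highest on that array (11 of 12, by a median of 0.97) and so were cell cycle genes (29 of 32, by a median of 0.64), whereas adipocyte markers were not (median -0.03). Bone marrow array 01 belongs to a set of 8 arrays in the series that differ from the rest in small nucleolar RNAs, the others being the 6 arrays of 6-month-old mice on high-fat diet and bone marrow array 03 of ob/ob mice. Such RNAs mostly guide chemical modification of ribosomal RNA. Over 54 genes for them, the mean was 5.88, 6.00 and 5.95 in epididymal cells, against 7.95, 6.78 and 6.79 in bone marrow cells. Between bone marrow array 01 and arrays 02 and 03, 1219 and 1314 of 23410 probe sets differed by 2-fold or more, against 290 between arrays 02 and 03, and the epididymal pairs differed at 193, 206 and 38.

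**Figure D1:**
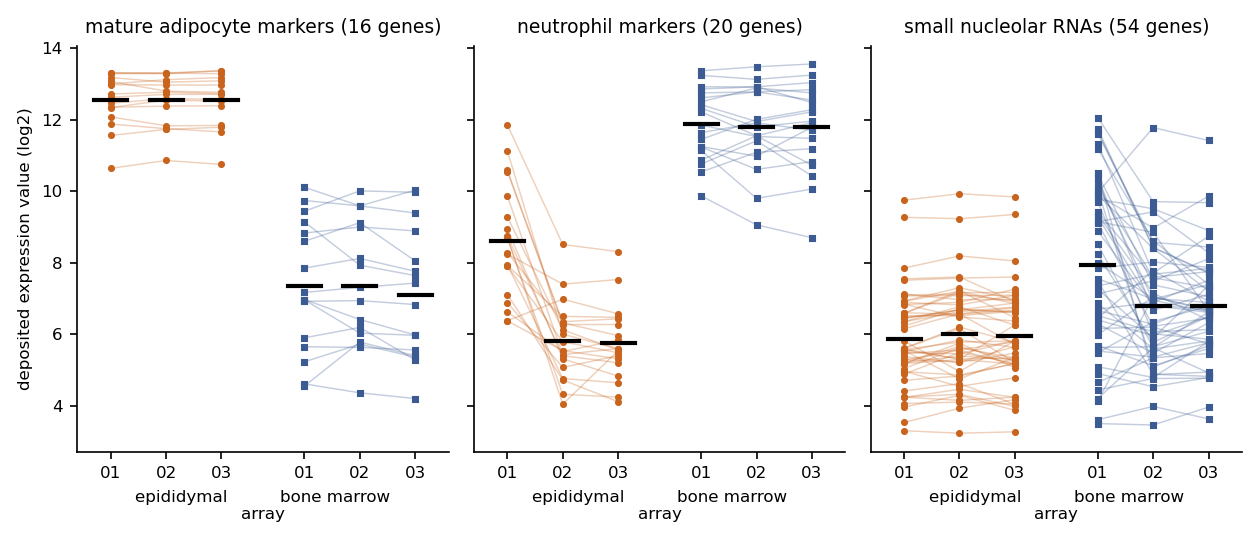
Deposited log2 values of 16 mature adipocyte markers, 20 neutrophil markers and 54 small nucleolar RNAs on the 3 epididymal (orange circles) and the 3 bone marrow arrays (blue squares) of 6-month chow mice. Thin lines join the values of a gene and black bars are the mean of an array. Neutrophil markers averaged 8.60 on epididymal array 01, against 5.82 and 5.74 on arrays 02 and 03, and small nucleolar RNAs averaged 7.95 on bone marrow array 01, against 6.78 and 6.79.

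Of 23410 probe sets with a gene symbol, 5386 were called, at an adjusted p below 0.05 and at least a 2-fold difference (limma with Benjamini-Hochberg adjustment, 23.0% of those tested). Among them 2753 were higher (11.8%) and 2633 were lower (11.2%) in epididymal cells. The median difference over all of them was 0.05, and 1058 higher and 1052 lower calls were 4-fold or more. At 64-fold or more the calls were 37 higher and 4 lower. On 11241 probe sets (48.0%) the 3 arrays of one depot all lay above those of the other, and 5356 of the 5386 calls were of this kind. Without epididymal array 01 the count was 5474, of which 5239 were the same calls, without bone marrow array 01 it was 5362 (4966 the same) and without both 5413 (4931 the same). A difference is written below as its log2 value ± standard error from the fit, and n is 3 arrays a depot throughout. In 270 of the 2753 higher and 303 of the 2633 lower calls the depot with the lower values was at or below background on all 3 of its arrays, and the size of such a difference is not settled.

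The largest rises in epididymal cells were in enzymes, receptors and secreted proteins of fat. Cyp2e1, a cytochrome P450 that oxidizes ethanol and small organic molecules, read 12.83, 12.96 and 12.94 in epididymal cells, against 4.55, 5.04 and 4.45 in bone marrow cells (8.23 ± 0.57, adjusted p = 1.14e-12). Npr3, the clearance receptor for natriuretic peptides, read 12.83, 12.74 and 12.78 in epididymal cells, against 5.46, 5.99 and 4.76 in bone marrow cells (7.39 ± 0.34). Acvr1c, the activin receptor ALK7, read 11.56, 11.73 and 11.79 in epididymal cells, against 4.61, 4.36 and 4.2 in bone marrow cells (7.30 ± 0.26). For these genes the lowest epididymal value lay far above the highest marrow value, and the epididymal pools differed little among themselves. Dpt, the matrix protein dermatopontin, read 11.48, 11.44 and 11.48 in epididymal cells, against 4.08, 4.45 and 4.19 in bone marrow cells (7.22 ± 0.14). Car5b, a mitochondrial carbonic anhydrase, read 12.59, 12.60 and 12.64 in epididymal cells, against 4.64, 5.76 and 5.69 in bone marrow cells (7.25 ± 0.26). Aoc3, an amine oxidase of the adipocyte surface, read 12.55, 12.68 and 12.67 in epididymal cells, against 5.36, 6.09 and 5.36 in bone marrow cells (7.03 ± 0.20). Car5b and Aoc3 were nearly constant over the epididymal pools and spread more widely over the marrow pools. Me1, the malic enzyme that supplies NADPH for fatty acid synthesis, differed by 6.98 ± 0.29. Scn7a, a sodium channel of the voltage-gated family, differed by 6.93 ± 0.26, and Pck1, the enzyme of glyceroneogenesis, by 6.86 ± 0.29. Rbp4, the plasma carrier of retinol, completed the 15 largest rises with 6.77 ± 0.27, alongside Lep, Cidec, Cdo1, Tmem45b and Glb1l2. On all 3 marrow arrays 5 of the 15 (Cyp2e1, Acvr1c, Dpt, Scn7a and Glb1l2) were at or below background, so their differences are set against a level that was not measured, and their order among the rises is not settled.

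Among the 15 largest falls were genes of granulocytes, platelets and red cells, cytokines of the interleukin 1 family, and an immunoglobulin kappa variable segment of B cells (-5.77). Ppbp, a chemokine precursor stored in platelets, read 6.61, 5.97 and 5.97 in epididymal cells, against 13.22, 12.01 and 12.92 in bone marrow cells (-6.53 ± 0.54, adjusted p = 3.9e-11). Here the epididymal pools differed little among themselves. Chil3, a chitinase-like protein of myeloid cells, read 8.68, 4.32 and 4.24 in epididymal cells, against 11.45, 12.01 and 12.28 in bone marrow cells (-6.16 ± 0.70, and -7.63 without epididymal array 01). Ctse, the aspartic protease cathepsin E, read 7.57, 4.75 and 4.74 in epididymal cells, against 11.95, 11.37 and 11.47 in bone marrow cells (-5.91 ± 0.45). Mmp8, the collagenase of neutrophils, read 7.94, 4.76 and 4.64 in epididymal cells, against 11.85, 11.53 and 11.48 in bone marrow cells (-5.84 ± 0.54). For these 3 genes epididymal array 01 was far above arrays 02 and 03, although still below each marrow array, and without it Ctse differed by -6.85 and Mmp8 by -6.92. Il1b, the proinflammatory cytokine interleukin 1 beta, read 6.35, 5.98 and 5.48 in epididymal cells, against 11.53, 12.08 and 11.30 in bone marrow cells (-5.70 ± 0.41). Rhag, a membrane glycoprotein of red cells, read 7.06, 3.93 and 4.0 in epididymal cells, against 10.44, 10.71 and 10.89 in bone marrow cells (-5.68 ± 0.50, and -6.71 without epididymal array 01).

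**Figure D2:**
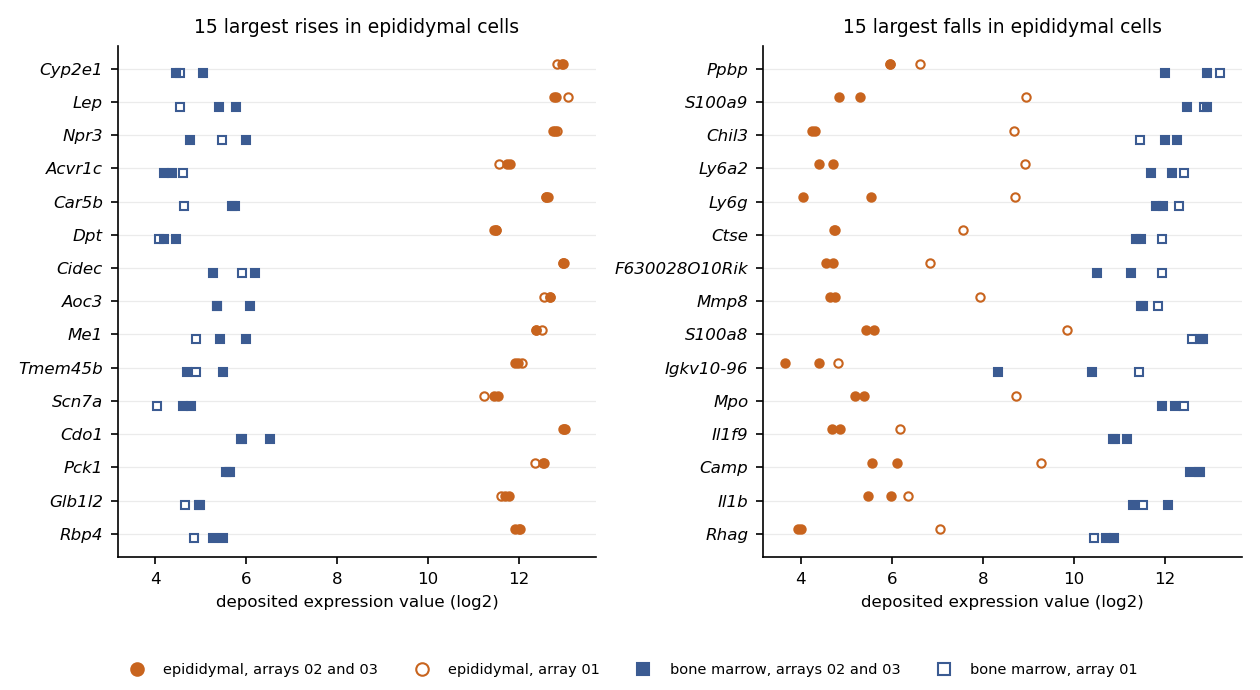
Deposited log2 values on each array for the 15 largest rises (left) and the 15 largest falls (right) among called probe sets whose depots did not overlap, with epididymal arrays as orange circles above bone marrow arrays as blue squares and array 01 of each depot as an open symbol. The epididymal values of the rises lie close together, while for each of the falls epididymal array 01 sits to the right of arrays 02 and 03, as for Chil3 (8.68, 4.32 and 4.24).

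All 16 mature adipocyte markers rose, with a median of 4.76 against 0.05 over all probe sets. Coat proteins of the lipid droplet parted by member: 8 of 14 rose, 0 fell and 6 were not called. Plin4, a coat protein abundant in white adipocytes, read 11.50, 11.75 and 11.76 in epididymal cells, against 5.75, 5.73 and 5.51 in bone marrow cells (6.01 ± 0.22). Fitm2, which acts in droplet budding, differed by 3.63 ± 0.23, Hilpda, a droplet protein that inhibits lipolysis, by 2.47 ± 0.25, and Bscl2, the droplet assembly protein seipin, by 2.21 ± 0.31. Plin2, the perilipin found in most cell types, differed by only 1.17 ± 0.14. Plin3, another widely made perilipin, was not called (0.74 ± 0.17), nor was Plin5 of oxidative tissues (0.57 ± 0.17). G0s2, an inhibitor of the triglyceride lipase, read 9.83, 9.83 and 9.72 in epididymal cells, against 9.18, 9.92 and 10.13 in bone marrow cells, so that the depots overlapped.

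Lipolysis and its receptors gave 13 rises and 1 fall of 16 measured members (median 3.26). Sucnr1, the receptor for succinate, read 10.83, 10.70 and 10.88 in epididymal cells, against 4.19, 4.65 and 4.43 in bone marrow cells (6.38 ± 0.25). These marrow values were all below background, so the size of that difference is not settled. Hcar1, the lactate receptor that restrains lipolysis, read 10.23, 10.61 and 10.51 in epididymal cells, against 5.68, 5.59 and 5.72 in bone marrow cells (4.79 ± 0.16). Hcar2, the niacin receptor, ran the other way with 9.15, 9.18 and 9.20 in epididymal cells, against 11.57, 11.22 and 10.89 in bone marrow cells (-2.06 ± 0.29). The receptors for lactate and niacin, which are close relatives, thus differed in direction between the depots. Ptger3, a receptor for prostaglandin E2, differed by 4.46 ± 0.23, and Pde3b, the phosphodiesterase through which insulin restrains lipolysis, by 3.73 ± 0.25. The lipases Lipe, Mgll and Pnpla2 differed by 4.47 ± 0.15, 3.41 ± 0.21 and 3.11 ± 0.16.

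Enzymes that make fatty acids and triglyceride were mostly higher in epididymal cells. Of 23 genes of fatty acid synthesis 15 rose and 1 fell (median 2.36), and of 20 genes of triglyceride synthesis 13 rose and 2 fell (median 2.27). Thrsp, a regulator of lipogenesis, read 11.88, 11.75 and 11.66 in epididymal cells, against 5.23, 5.72 and 5.36 in bone marrow cells (6.33 ± 0.42). Acaca and Acacb, the acetyl-CoA carboxylases, differed by 4.0 ± 0.17 and 4.05 ± 0.20, and Acly, which makes cytosolic acetyl-CoA, by 1.97 ± 0.17. Scd1 and Scd2, desaturases at the delta-9 position, differed by 4.27 ± 0.18 and 3.42 ± 0.21. Fads2, the delta-6 desaturase, fell with 7.22, 6.92 and 6.86 in epididymal cells, against 9.07, 8.66 and 8.36 in bone marrow cells (-1.70 ± 0.25). Gpam, the acyltransferase of the first step of triglyceride synthesis, differed by 4.18 ± 0.25, Mogat1, a monoacylglycerol acyltransferase, by 4.72 ± 0.23, and Dgat2, which forms triglyceride, by 3.39 ± 0.17. Dgat1, the other enzyme of that step, was not called (0.90 ± 0.21). Cholesterol synthesis gave 11 rises of 19 (median 1.12), with Hmgcs1, an early enzyme, at 3.25 ± 0.20 and Sqle, the squalene epoxidase, not called (0.64 ± 0.22). Without epididymal array 01 that count was 9.

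Among genes of fatty acid uptake 8 of 16 rose and 1 fell (median 1.24), the fall being Slc27a4, a fatty acid transport protein (-1.04 ± 0.18), which was not called without bone marrow array 01 (-0.89). Slc27a1, a fatty acid transport protein, read 11.44, 11.95 and 11.84 in epididymal cells, against 6.72, 6.34 and 6.56 in bone marrow cells (5.20 ± 0.17). Vldlr, the receptor for very low density lipoprotein, differed by 4.84 ± 0.24, and Gpihbp1, the endothelial anchor of lipoprotein lipase, by 1.67 ± 0.25. Fabp9, a fatty acid binding protein best known from testis, read 9.29, 9.81 and 10.26 in epididymal cells, against 3.98, 4.0 and 3.75 in bone marrow cells (5.88 ± 0.17). Of 10 markers of epididymis and testis, 0 were called, and 7, 6 and 7 of them were at or below background on the epididymal arrays. Sycp3, a protein of the meiotic chromosome axis that is named here after its values were seen, read 7.25, 6.83 and 6.62 in epididymal cells, against 3.53, 3.93 and 3.73 in bone marrow cells. The marrow values of Fabp9 and Sycp3 were all below background, so the sizes of their differences are not settled. Without epididymal array 01, 2 of the 10 markers were called higher.

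Catabolism of branched-chain amino acids was higher in epididymal cells at 19 of 23 genes, with 0 lower and a median of 2.84. Aldh6a1, an enzyme of valine breakdown, read 11.68, 11.82 and 11.81 in epididymal cells, against 6.32, 6.83 and 7.02 in bone marrow cells (5.05 ± 0.22, adjusted p = 6.87e-17). Bckdhb, a subunit of the branched-chain ketoacid dehydrogenase, read 10.30, 10.53 and 10.70 in epididymal cells, against 6.10, 6.00 and 6.03 in bone marrow cells (4.46 ± 0.15). Mccc1, which acts on leucine, differed by 4.41 ± 0.18, and Pccb, which acts on propionyl-CoA, by 4.15 ± 0.26. Bckdk, the kinase that switches the dehydrogenase off, was not called (0.43 ± 0.13). Beta-oxidation gave 20 rises of 23 (median 2.12), led by Decr1, a dienoyl-CoA reductase (3.99 ± 0.19), and Hadh (3.39 ± 0.19), while Cpt1a, the liver form of the entry enzyme, was not called (-0.46 ± 0.19).

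In the tricarboxylic acid cycle and pyruvate entry 21 of 28 genes rose and 1 fell (median 1.55). Pcx, the pyruvate carboxylase, read 12.10, 12.22 and 12.15 in epididymal cells, against 7.27, 7.37 and 7.33 in bone marrow cells (4.83 ± 0.21). The kinases that inhibit pyruvate dehydrogenase parted by member, with Pdk4 at 4.25 ± 0.44, Pdk2 at 2.93 ± 0.17, Pdk1 not called (0.62 ± 0.14) and Pdk3 lower (-1.16 ± 0.19). Subunits of the respiratory chain and the ATP synthase differed less, with 20 of 52 higher, 1 lower and a median of 0.64, and 17 higher and 0 lower without bone marrow array 01. Ndufs1, the largest subunit of complex I, differed by 1.69 ± 0.22 and Atp5a1, a subunit of the ATP synthase, by 1.39 ± 0.21. In contrast Atp5g1, a subunit of the membrane ring of the ATP synthase, fell (-1.47 ± 0.44) and was not called without bone marrow array 01 (-0.77). Brown and beige fat genes gave 5 rises and 1 fall of 17 (median 0.45), a share called of 35.3% against 23.0% of all probe sets. Ebf2, a transcription factor of adipocyte precursors, differed by 3.01 ± 0.13 and Cox8b, a cytochrome oxidase subunit, by 2.37 ± 0.23, whereas Ucp1, the uncoupling protein, read 4.88, 5.43 and 5.04 in epididymal cells, against 4.99, 5.39 and 5.34 in bone marrow cells and was not called.

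Insulin signaling and glucose uptake parted in both directions, with 13 rises and 6 falls of 22. Trarg1, a regulator of glucose transporter traffic, read 12.31, 12.22 and 12.02 in epididymal cells, against 6.57, 7.13 and 7.01 in bone marrow cells (5.28 ± 0.22). The receptor Insr differed by 2.08 ± 0.17 and its substrates Irs1, Irs2 and Irs3 by 2.55 ± 0.18, 1.51 ± 0.20 and 3.65 ± 0.16. Akt2, the form that acts in glucose uptake, rose (1.74 ± 0.12) and Akt1 fell (-1.28 ± 0.15). Glycolysis had a median of 0.02, with 6 of 19 higher and 3 lower. Pfkfb3, which makes an activator of glycolysis, differed by 3.07 ± 0.19 and Pklr, the pyruvate kinase of liver and red cells, by -2.10 ± 0.19.

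**Figure D3:**
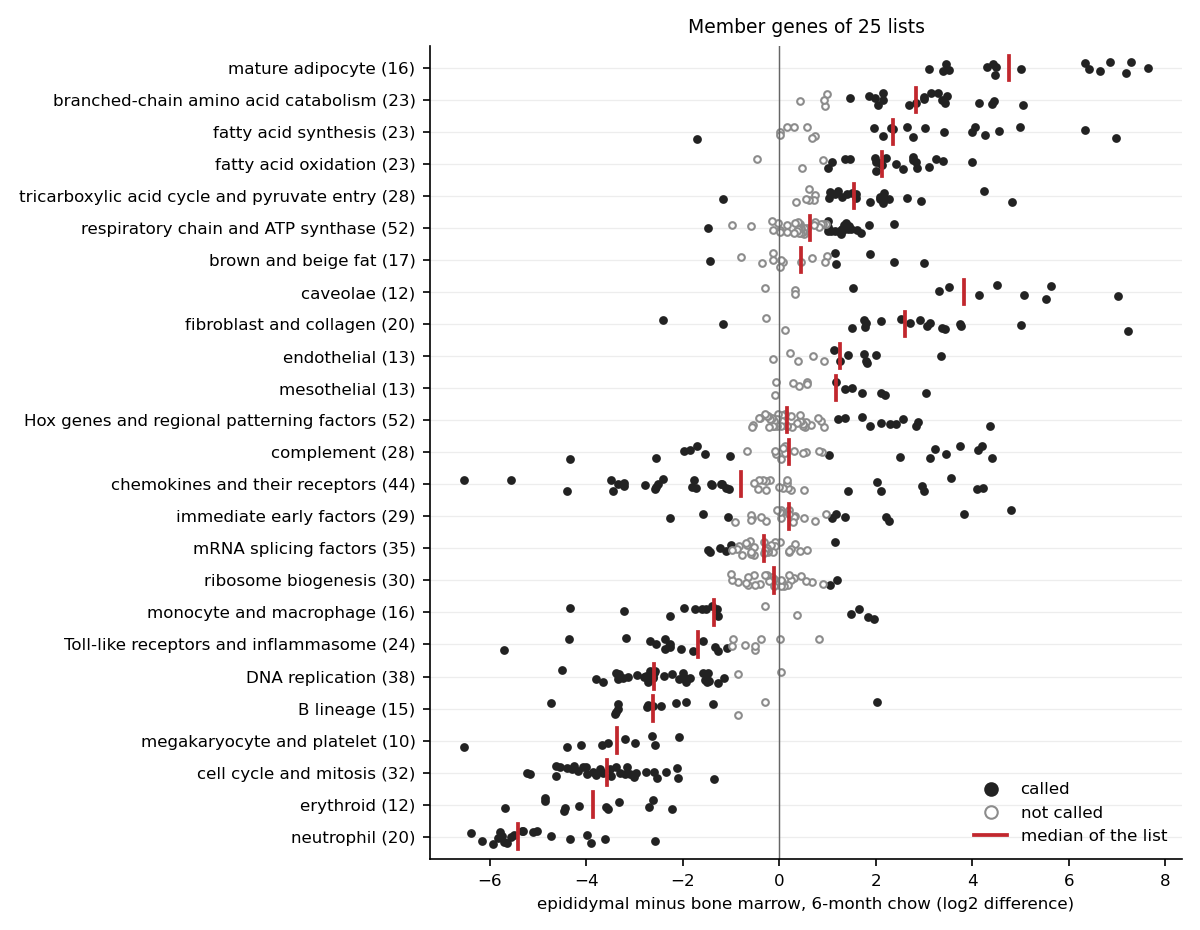
Epididymal minus bone marrow difference (log2) of every measured member of 25 lists in 6-month chow mice, with filled points for called members, open points for members not called, and a red bar at the median. The number of measured members follows each name. The list medians run from 4.76 in mature adipocyte markers to -5.42 in neutrophil markers, and ribosome biogenesis and splicing factors lie around 0.

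Secreted proteins of adipocytes gave 13 rises of 17 and 0 falls (median 3.66). Agt, the precursor of angiotensin, read 11.48, 11.80 and 11.82 in epididymal cells, against 8.65, 7.92 and 8.46 in bone marrow cells (3.36 ± 0.29). Angptl4, an inhibitor of lipoprotein lipase, differed by 4.55 ± 0.24, Adipoq, the hormone adiponectin, by 4.31 ± 0.39, and Rarres2, the chemokine-like protein chemerin, by 3.12 ± 0.31. Nampt, an enzyme of NAD synthesis that is also secreted, was not called (0.47 ± 0.15). Enpep, which cleaves angiotensin, read 10.01, 9.91 and 9.92 in epididymal cells, against 5.67, 5.24 and 5.32 in bone marrow cells (4.54 ± 0.23), while Ace, the angiotensin-converting enzyme, fell (-1.10 ± 0.35) but was not called without bone marrow array 02 (-0.58). Of 11 renin-angiotensin genes 3 rose and 2 fell.

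Caveolae, the flask-shaped pits that are dense on adipocyte membranes, had 9 of 12 genes higher and 0 lower (median 3.83). Cav1, the main coat protein, read 11.92, 11.91 and 11.92 in epididymal cells, against 6.58, 6.75 and 5.51 in bone marrow cells (5.64 ± 0.28), and Cav2, its partner, read 11.16, 10.98 and 11.01 in epididymal cells, against 6.01, 5.57 and 5.01 in bone marrow cells (5.52 ± 0.27). Ehd2, the ATPase at the neck of caveolae, differed by 5.07 ± 0.18, and the coat adaptors Cavin1, Cavin2 and Cavin3 by 4.14 ± 0.25, 3.31 ± 0.34 and 4.51 ± 0.21. The muscle members Cav3 and Cavin4 were not called (0.32 ± 0.23 and 0.33 ± 0.21).

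Fibroblast and collagen genes gave 16 rises and 2 falls of 20 (median 2.62), and 1 fall without bone marrow array 01. Col15a1, a collagen of basement membrane zones, read 11.06, 10.88 and 10.83 in epididymal cells, against 6.10, 5.96 and 5.65 in bone marrow cells (5.02 ± 0.21). The basement membrane collagens Col4a1 and Col4a2 differed by 3.44 ± 0.15 and 3.75 ± 0.19, against 1.51 ± 0.39 for Col1a1, the main collagen of bone. Pi16, a marker of fibroblast progenitors, ran the other way with 5.56, 5.15 and 5.22 in epididymal cells, against 7.47, 8.08 and 7.63 in bone marrow cells (-2.42 ± 0.16), and Pdgfra, the receptor that marks fibroblasts, was not called (0.11 ± 0.31). Endothelial markers gave 8 rises of 13 (median 1.26), led by Cldn5, a tight junction protein, with 10.50, 10.68 and 10.65 in epididymal cells, against 7.30, 7.27 and 7.17 in bone marrow cells (3.36 ± 0.20), while Pecam1, which leukocytes and platelets also make, was not called (0.69 ± 0.16). Mesothelial markers gave 7 rises of 13 (median 1.18), led by Upk3b, a uroplakin (3.05 ± 0.20). Smooth muscle genes Acta2 and Tagln differed by 3.0 ± 0.17 and 1.56 ± 0.20. These markers of other cells of a fat pad moved with the adipocyte genes, and their part in the difference was not tested.

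Proteases of the matrix and their inhibitors parted strongly, with 12 rises and 8 falls of 28. Timp4, an inhibitor of metalloproteinases, read 11.74, 11.57 and 11.62 in epididymal cells, against 5.56, 5.44 and 4.92 in bone marrow cells (6.34 ± 0.35). Adamts5 and Adamts1, which cleave aggrecan and versican, differed by 5.32 ± 0.25 and 5.15 ± 0.23. Mmp9, the gelatinase of neutrophils and osteoclasts, read 8.28, 6.35 and 6.43 in epididymal cells, against 11.64, 11.91 and 11.71 in bone marrow cells (-4.73 ± 0.45), and Mmp25, a membrane-bound protease of leukocytes, differed by -3.82 ± 0.26. Wnt genes gave 12 rises and 3 falls of 34. Fzd4, a Wnt receptor, read 11.98, 11.99 and 11.95 in epididymal cells, against 6.21, 7.01 and 6.69 in bone marrow cells (5.33 ± 0.22). Sfrp5, a secreted Wnt inhibitor of white fat, read 10.40, 10.60 and 10.49 in epididymal cells, against 5.42, 5.51 and 5.43 in bone marrow cells (5.04 ± 0.24), whereas its relative Sfrp4 read 5.16, 5.62 and 5.29 in epididymal cells, against 8.55, 9.21 and 9.33 in bone marrow cells (-3.67 ± 0.31). These secreted inhibitors of one family therefore differed in direction. Of 38 genes of TGF-beta, activin and BMP signaling 15 rose and 4 fell, with Bmpr1a, a BMP receptor, at 2.77 ± 0.17 and Grem1, a BMP antagonist, at -2.47 ± 0.26.

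Transcription factors that direct adipocyte formation gave 13 rises and 3 falls of 28 (median 0.78), and 12 and 5 without bone marrow array 01. Pparg, the central regulator of adipocytes, read 10.96, 10.78 and 10.63 in epididymal cells, against 8.58, 8.30 and 7.95 in bone marrow cells (2.51 ± 0.29). Cebpa, its partner factor, read 11.07, 11.06 and 10.77 in epididymal cells, against 7.79, 8.61 and 7.80 in bone marrow cells (2.90 ± 0.18), while Cebpb and Cebpd, which act early in differentiation, were not called (-0.79 ± 0.28 and 0.13 ± 0.21). Ebf1, used in both B cells and adipocytes, rose (2.02 ± 0.24) while the B cell factor Pax5 fell (-2.61 ± 0.29). Klf5, a factor of early adipogenesis, fell (-1.96 ± 0.16), as did Gata2, which restrains adipogenesis and acts in blood progenitors (-1.93 ± 0.16). Myeloid factors gave 1 rise and 14 falls of 22 (median -1.95), with Spi1, the factor PU.1, at 6.53, 6.59 and 5.68 in epididymal cells, against 11.44, 10.58 and 9.80 in bone marrow cells (-4.34 ± 0.31) and Ikzf1, the lymphoid factor Ikaros, at -3.57 ± 0.20.

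Of 52 Hox genes and regional factors 11 rose, 0 fell and 41 were not called (median 0.16). The share called was 21.2%, against 23.0% of all probe sets. Of the 52, 17 were at or below background on all epididymal arrays and 15 on all bone marrow arrays. For a gene at background in both depots, the lack of a call cannot show equal levels. Among Hox genes the rises were in Hoxc4, Hoxc5, Hoxc6, Hoxc8, Hoxa5 and Hoxd8. Hoxc8 read 10.26, 10.16 and 9.84 in epididymal cells, against 5.56, 6.02 and 5.60 in bone marrow cells (4.36 ± 0.23, adjusted p = 5.53e-15). Hoxc6 read 8.29, 7.95 and 8.02 in epididymal cells, against 5.43, 5.24 and 5.07 in bone marrow cells (2.84 ± 0.16), and the neighbouring Hoxc4 and Hoxc5 differed by 2.57 ± 0.23 and 2.41 ± 0.19. Hoxa5 differed by 2.29 ± 0.16 and Hoxd8 by 1.71 ± 0.18. In the Hoxc cluster the next genes after Hoxc8, Hoxc9 and Hoxc10, were not called (0.55 ± 0.17 and -0.05 ± 0.18), nor were Hoxa9 and Hoxa10 (-0.30 ± 0.11 and -0.55 ± 0.19), which blood progenitors use. Gata6, a factor of visceral mesoderm, read 8.10, 8.88 and 8.45 in epididymal cells, against 5.83, 5.42 and 5.58 in bone marrow cells (2.87 ± 0.17), and Wt1, a factor of visceral fat and mesothelium, differed by 1.37 ± 0.19. Tbx15, a factor with depot-dependent levels in fat, was not called (-0.56 ± 0.20).

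All 20 neutrophil markers fell, with a median of -5.42 and of -6.45 without epididymal array 01. The same 20 genes spanned the maturation of the cell: Elane, a primary granule protease, read 7.90, 5.79 and 5.48 in epididymal cells, against 12.22, 11.55 and 11.92 in bone marrow cells (-5.5 ± 0.38), and Mmp9 and Cxcr2, of later stages, differed by -4.73 ± 0.45 and -5.56 ± 0.66. Without epididymal array 01 these differences were -6.26 for Elane, -5.36 for Mmp9 and -6.46 for Cxcr2. Subunits of the phagocyte oxidase fell with them, among them Cybb, the catalytic subunit, with 9.60, 8.03 and 7.71 in epididymal cells, against 12.46, 12.35 and 12.73 in bone marrow cells (-4.07 ± 0.35). Of 21 genes of the oxidase and granule killing 20 fell and 0 rose (median -4.07), and 19 of 21 were highest among epididymal arrays on array 01.

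Of the measured members, erythroid markers fell in 12 of 12 (median -3.87), megakaryocyte and platelet markers in 10 of 10 (median -3.37) and B lineage markers in 12 of 15, with 1 rise (median -2.61). Slc4a1, the anion exchanger of red cells, read 9.31, 6.38 and 6.53 in epididymal cells, against 12.12, 12.23 and 12.42 in bone marrow cells (-4.85 ± 0.51, and -5.81 without epididymal array 01). Itgb3, a subunit of the platelet fibrinogen receptor, read 6.74, 6.15 and 5.86 in epididymal cells, against 10.83, 9.58 and 10.69 in bone marrow cells (-4.12 ± 0.27). Jchain, the joining chain of plasma cell antibodies, read 5.93, 5.05 and 5.15 in epididymal cells, against 10.34, 10.13 and 9.84 in bone marrow cells (-4.73 ± 0.43). Mast cell and basophil markers gave 7 falls of 10, with the basophil proteases Mcpt8 and Prss34 at -4.63 ± 0.28 and -4.12 ± 0.34, while the mast cell proteases Mcpt4 and Tpsb2 were not called (0.70 ± 0.47 and 0.45 ± 0.26). T and NK markers differed least, with 5 falls of 15 (median -0.42), a share called of 33.3% against 23.0% of all probe sets. Cd3e, a chain of the T cell receptor complex, read 6.23, 6.40 and 6.59 in epididymal cells, against 6.94, 6.2 and 6.36 in bone marrow cells and was not called.

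Cell cycle genes fell in 32 of 32 (median -3.58) and DNA replication genes in 36 of 38 (median -2.59). Mki67, a marker of dividing cells, read 7.88, 6.24 and 5.74 in epididymal cells, against 11.99, 11.70 and 11.88 in bone marrow cells (-5.23 ± 0.34, and -5.87 without epididymal array 01). Ccna2, the cyclin of S phase and G2, read 6.98, 5.58 and 5.38 in epididymal cells, against 11.65, 10.84 and 10.97 in bone marrow cells (-5.17 ± 0.34). The subunits Mcm2 to Mcm7 of the replicative helicase differed between -2.58 ± 0.16 for Mcm7 and -3.65 ± 0.22 for Mcm6, and Rrm2, the small subunit of ribonucleotide reductase, by -4.51 ± 0.31. On epididymal arrays 6, 13 and 15 of the 32 cell cycle genes were at or below background.

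Monocyte and macrophage markers did not move as a block. Of 16 measured, 4 rose, 10 fell and 2 were not called (median -1.35), and epididymal array 01 was not above the others (means 7.30, 7.30 and 7.24). Those that rose were Cd163, a scavenger receptor for hemoglobin, with 7.84, 7.97 and 7.92 in epididymal cells, against 5.37, 6.22 and 6.25 in bone marrow cells (1.96 ± 0.33), Folr2, a folate receptor (1.84 ± 0.24), Mertk, a receptor for dying cells (1.66 ± 0.28), and Lyve1, a hyaluronan receptor (1.48 ± 0.19), which mark resident macrophages of tissues. Among those that fell were Ccr2, the receptor of circulating monocytes, with 5.60, 5.56 and 5.14 in epididymal cells, against 8.86, 8.03 and 9.06 in bone marrow cells (-3.22 ± 0.29), Cd14 (-2.26 ± 0.22) and Adgre1, the macrophage antigen F4/80 (-1.74 ± 0.28). Vsig4, a receptor of resident macrophages, was at or below background in both depots. Genes of resident macrophages thus did not all rise.

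Markers of marrow stroma and bone gave 1 rise and 4 falls of 15 (median -0.41), a share called of 33.3% against 23.0% of all probe sets. Lepr, the leptin receptor, which marks stromal cells of marrow, read 4.16, 4.21 and 4.45 in epididymal cells, against 8.68, 8.57 and 8.59 in bone marrow cells (-4.34 ± 0.33, adjusted p = 7.75e-12), so its epididymal values were at or below background. Cxcl12, the chemokine that holds blood stem cells in marrow, read 8.09, 7.79 and 7.96 in epididymal cells, against 10.99, 11.31 and 11.18 in bone marrow cells (-3.21 ± 0.31). Ibsp, the bone sialoprotein of osteoblasts and osteoclasts, read 5.02, 5.31 and 4.85 in epididymal cells, against 10.22, 9.97 and 9.87 in bone marrow cells (-4.96 ± 0.31). In contrast Sp7, the osteoblast factor osterix, and Alpl, the bone alkaline phosphatase, were not called (-0.54 ± 0.21 and -0.53 ± 0.32). Acp5, the acid phosphatase of osteoclasts and some macrophages, was higher in epididymal cells, with 11.69, 11.82 and 11.82 in epididymal cells, against 9.45, 9.53 and 9.54 in bone marrow cells (2.27 ± 0.16).

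Complement genes split between the depots, with 9 rises and 7 falls of 28. Cfb, a component of the alternative pathway, read 11.90, 11.95 and 11.96 in epididymal cells, against 7.14, 7.47 and 7.99 in bone marrow cells (4.40 ± 0.24). C7 of the membrane attack complex differed by 4.21 ± 0.17, and C4b and C2 of the classical pathway by 4.13 ± 0.26 and 3.75 ± 0.17. On the other side Cfp, the leukocyte protein properdin, read 7.91, 7.78 and 7.67 in epididymal cells, against 10.74, 9.97 and 10.33 in bone marrow cells (-2.56 ± 0.17), and the C1q chain C1qb and the receptor C5ar1 differed by -1.86 ± 0.34 and -1.97 ± 0.16.

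Chemokines and their receptors gave 8 rises and 22 falls of 44. Cxcl1, which draws neutrophils, read 11.16, 11.48 and 11.30 in epididymal cells, against 7.25, 7.09 and 6.92 in bone marrow cells (4.23 ± 0.25), and Ccl7, which draws monocytes, read 9.90, 9.84 and 9.61 in epididymal cells, against 5.89, 5.58 and 5.59 in bone marrow cells (4.09 ± 0.32). Cxcl10, induced by interferon, differed by 3.56 ± 0.20 and Ccl2 by 2.96 ± 0.36. Their receptors lay on the other side: Cxcr2, for Cxcl1, read 7.11, 4.72 and 4.11 in epididymal cells, against 10.76, 11.41 and 10.43 in bone marrow cells (-5.56 ± 0.66), Ccr1 differed by -4.39 ± 0.28 and Ccr2 by -3.22 ± 0.29. Cxcl2 fell with all arrays (-1.41 ± 0.46) and was not called without bone marrow array 02 (-1.16). Cytokine genes gave 3 rises and 16 falls of 33. The rises were in Osmr, Il15ra and Il6st, receptor subunits, at 2.47 ± 0.35, 2.4 ± 0.15 and 1.93 ± 0.21. Il1r2, a decoy receptor for interleukin 1, read 6.71, 5.89 and 6.11 in epididymal cells, against 11.16, 11.72 and 11.47 in bone marrow cells (-5.21 ± 0.32), and Tnf differed by -2.24 ± 0.19.

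Toll-like receptors and inflammasome genes gave 0 rises and 16 falls of 24 (median -1.69), and 1 rise with a term for the set of 8 arrays. Tlr13, a receptor for bacterial ribosomal RNA, read 5.52, 5.05 and 5.17 in epididymal cells, against 10.12, 9.51 and 9.16 in bone marrow cells (-4.35 ± 0.38). Tlr2, Tlr6, Tlr7 and Tlr8 differed by -2.04 ± 0.16, -2.29 ± 0.22, -2.27 ± 0.40 and -2.36 ± 0.42. Tlr4, the receptor for lipopolysaccharide, read 7.67, 7.47 and 7.35 in epididymal cells, against 7.36, 7.40 and 7.69 in bone marrow cells and was not called, and Tlr3, for double-stranded RNA, was not called either (0.82 ± 0.22). MHC class II genes gave 5 falls of 9, with Cd74, the invariant chain, at -1.62 ± 0.18, and 3 of the 4 not called, H2-Ab1, H2-Aa and H2-Eb1, lay just short of 2-fold (-0.93 ± 0.19, -0.95 ± 0.18 and -0.95 ± 0.23). Interferon-stimulated genes gave 1 rise and 10 falls of 24, and 1 and 7 without bone marrow array 01.

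Within several families one member was high in epididymal cells and its close relative in marrow. Of 38 such genes compared, chosen in families for this purpose, 14 rose and 12 fell. Retn, the adipocyte hormone resistin, read 13.18, 13.05 and 13.09 in epididymal cells, against 6.97, 6.41 and 5.98 in bone marrow cells (6.65 ± 0.29). Retnla, a relative made by alternatively activated macrophages and fat tissue, read 10.21, 9.59 and 9.80 in epididymal cells, against 4.40, 4.52 and 4.11 in bone marrow cells (5.52 ± 0.27), and Retnlg, the relative of neutrophils, read 10.55, 6.27 and 6.27 in epididymal cells, against 12.50, 12.89 and 12.75 in bone marrow cells (-5.02 ± 0.74, and -6.44 without epididymal array 01). Retnlb, of the gut, was not called (-0.18 ± 0.18) and lay below background in both depots. The marrow values of Retnla were below background as well, so the size of its rise is not settled. Car3, an anhydrase of fat and muscle, read 13.89, 13.91 and 13.91 in epididymal cells, against 6.92, 8.67 and 6.67 in bone marrow cells (6.48 ± 0.38), while Car2, of red cells and osteoclasts, read 8.54, 6.87 and 6.92 in epididymal cells, against 12.48, 12.28 and 12.17 in bone marrow cells (-4.86 ± 0.32). Slc2a4, the insulin-responsive glucose transporter GLUT4, read 10.64, 10.86 and 10.75 in epididymal cells, against 7.17, 7.31 and 7.43 in bone marrow cells (3.45 ± 0.23). Slc2a3, the transporter of leukocytes and neurons, read 8.44, 8.13 and 7.89 in epididymal cells, against 10.66, 11.05 and 11.40 in bone marrow cells (-2.88 ± 0.25), and the widely used Slc2a1 was not called (-0.17 ± 0.21).

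Hexokinases gave a like split. Hk2, the insulin-regulated form, read 11.33, 11.51 and 11.51 in epididymal cells, against 7.54, 8.86 and 8.88 in bone marrow cells (3.02 ± 0.27), Hk3, the form of myeloid cells, read 6.57, 6.25 and 6.10 in epididymal cells, against 9.11, 9.52 and 9.66 in bone marrow cells (-3.13 ± 0.22), and Hk1 was not called (-0.07 ± 0.15). Aqp7, the glycerol channel of adipocytes, read 11.22, 11.50 and 11.38 in epididymal cells, against 4.94, 5.86 and 4.57 in bone marrow cells (6.24 ± 0.23), and Aqp9, the glycerol channel of leukocytes and liver, read 5.57, 4.97 and 5.14 in epididymal cells, against 8.50, 8.82 and 8.91 in bone marrow cells (-3.52 ± 0.26). Lpin1 rose (4.16 ± 0.19) and Lpin2 fell (-1.85 ± 0.24), both phosphatidate phosphatases. Alas1, the general enzyme that starts heme synthesis, rose (1.62 ± 0.20), and Alas2, the erythroid form, fell (-4.15 ± 0.30). Probes of close relatives can bind each other's transcripts, and this was not tested.

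**Figure D4:**
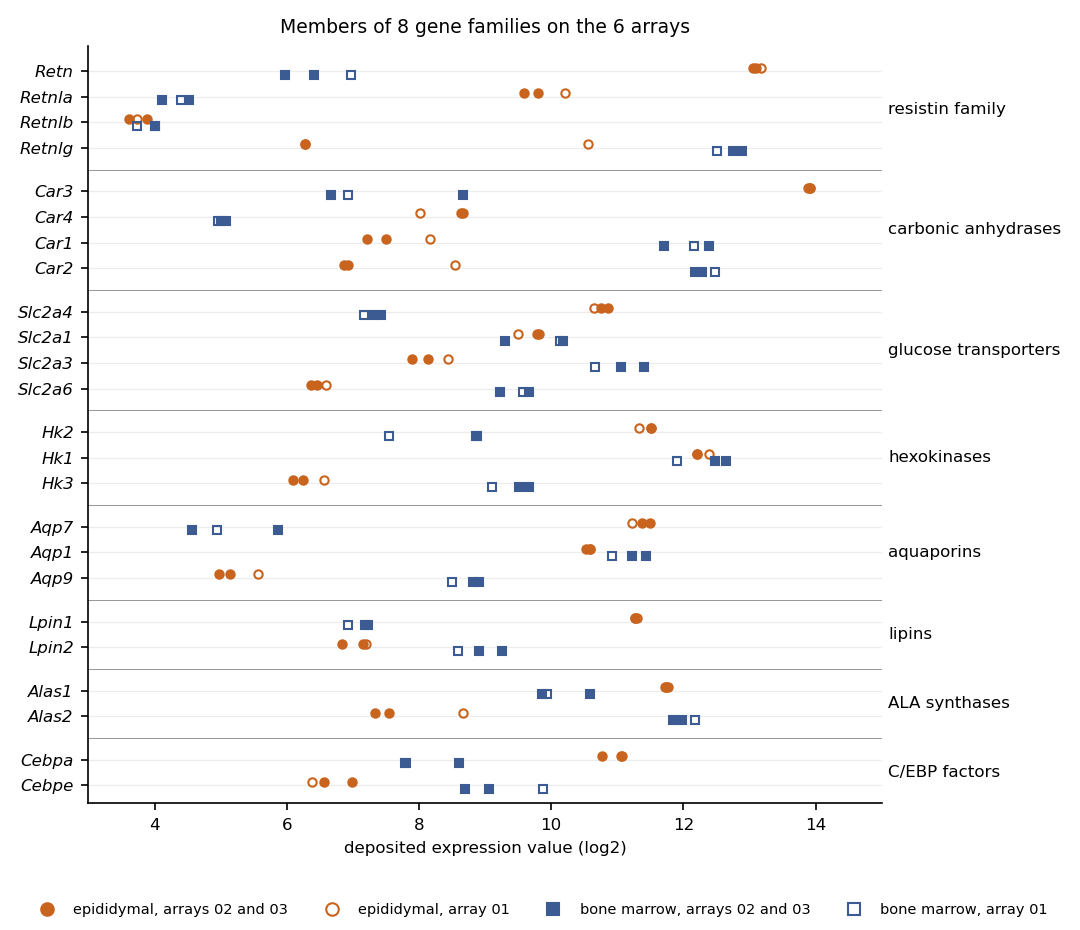
Deposited log2 values on the 6 arrays for 24 members of 8 gene families, with epididymal arrays as orange circles above bone marrow arrays as blue squares and array 01 of each depot open. In each family shown, at least 1 member lies higher in epididymal cells and at least 1 in bone marrow cells, as for Hk2 (11.33, 11.51 and 11.51 in epididymal cells, against 7.54, 8.86 and 8.88 in bone marrow cells) and Hk3 (6.57, 6.25 and 6.10 in epididymal cells, against 9.11, 9.52 and 9.66 in bone marrow cells).

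Promoter windows of the resistin family are printed because its members split between the depots, with those of Lep and Ngp as the hormone of fat and a granule protein of neutrophils. The windows run from 250 bases before to 50 after the gene start (RefSeq, build GRCm38.p6, all on the plus strand). Capitals mark TTGCNNAA or its reverse complement TTNNGCAA, the core that C/EBP factors bind, where N is any base, and no other motif was searched.
Retn at chr8:3655520-3655819: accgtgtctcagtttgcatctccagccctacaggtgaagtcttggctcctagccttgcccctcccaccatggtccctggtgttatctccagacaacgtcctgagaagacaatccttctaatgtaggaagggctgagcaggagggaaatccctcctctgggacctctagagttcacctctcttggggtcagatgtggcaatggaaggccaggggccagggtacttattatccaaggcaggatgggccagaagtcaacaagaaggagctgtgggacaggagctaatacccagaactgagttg
Retnla at chr16:48842359-48842658: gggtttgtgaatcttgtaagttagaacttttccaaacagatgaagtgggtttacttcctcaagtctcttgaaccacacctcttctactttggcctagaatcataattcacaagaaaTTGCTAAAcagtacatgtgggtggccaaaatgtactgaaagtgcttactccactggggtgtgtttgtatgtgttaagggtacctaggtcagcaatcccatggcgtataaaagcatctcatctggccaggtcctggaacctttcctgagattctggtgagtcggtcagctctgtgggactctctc
Retnlg at chr16:48872358-48872657: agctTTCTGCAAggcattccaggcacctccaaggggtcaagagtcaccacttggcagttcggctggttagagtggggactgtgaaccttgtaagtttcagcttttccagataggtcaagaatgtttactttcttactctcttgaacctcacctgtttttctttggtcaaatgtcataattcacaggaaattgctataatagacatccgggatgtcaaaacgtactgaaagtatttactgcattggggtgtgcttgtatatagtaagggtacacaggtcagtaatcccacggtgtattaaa
Lep at chr6:29059971-29060270: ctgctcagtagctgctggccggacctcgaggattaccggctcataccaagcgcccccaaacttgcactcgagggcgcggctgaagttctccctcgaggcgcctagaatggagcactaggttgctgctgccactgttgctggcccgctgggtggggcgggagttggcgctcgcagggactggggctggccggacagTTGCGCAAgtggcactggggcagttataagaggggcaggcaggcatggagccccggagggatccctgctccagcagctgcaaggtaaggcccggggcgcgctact
Ngp at chr9:110419558-110419857: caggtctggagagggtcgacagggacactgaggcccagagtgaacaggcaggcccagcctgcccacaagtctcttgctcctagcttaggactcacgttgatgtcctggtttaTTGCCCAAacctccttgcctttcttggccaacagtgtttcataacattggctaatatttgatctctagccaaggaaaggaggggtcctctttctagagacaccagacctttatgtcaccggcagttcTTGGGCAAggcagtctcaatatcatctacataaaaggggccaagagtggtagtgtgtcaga
The windows of Retnla, Retnlg and Lep held 1 match each, at -134, -246 and -55 from the gene start, that of Ngp held 2, at -138 and -11, and that of Retn held none in these bases. Over all 32851 windows given by RefSeq, 10.8% held a match. Windows of genes called higher and lower in epididymal cells held one in 9.7% and 9.7%, and those of genes not called in 9.8%. Of 19 windows of neutrophil markers 8 did (42.1%), of 14 windows of mature adipocyte markers 3 did (21.4%), and of 27 windows of cell cycle genes 0 did. These shares are a description of letters, with no test.

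For microRNAs the probe sets cover the gene or precursor region and not the mature arm. Of 299 microRNA probe sets 6 were called higher and 6 lower, a share of 4.01% against 23.0% of all probe sets. They stand for 297 genes, of which 271 had a mature sequence in the RefSeq table. Mature sequences of some of the called genes follow, with bases 2 to 8, the seed, in capitals.
miR-568 at chr16:43640665-43640684, plus strand: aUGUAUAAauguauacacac
let-7c-5p at chr16:77599672-77599693, plus strand: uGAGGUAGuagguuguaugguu
miR-142a-3p at chr11:87756903-87756925, plus strand: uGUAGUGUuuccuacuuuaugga
miR-15a-5p at chr14:61632075-61632096, minus strand: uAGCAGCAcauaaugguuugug
miR-15b-5p at chr3:69009775-69009796, plus strand: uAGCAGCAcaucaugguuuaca
Mir142, the precursor of a microRNA of blood cells, read 4.86, 4.79 and 4.91 in epididymal cells, against 6.87, 7.76 and 7.94 in bone marrow cells (-2.67 ± 0.22). Mir15a and Mir15b share the seed AGCAGCA and both fell, with 6.05, 6.27 and 5.86 in epididymal cells, against 8.07, 7.78 and 7.85 in bone marrow cells for Mir15a (-1.84 ± 0.17) and -1.2 ± 0.37 for Mir15b, whose depots overlapped. The other 4 genes with that seed, Mir16-1 (-0.75 ± 0.24), Mir16-2 (-0.62 ± 0.27), Mir195a (0.10 ± 0.14) and Mir497 (0.15 ± 0.15), were not called. Mirlet7c-1 rose (1.39 ± 0.17) and was the only one of 9 let-7 genes with the seed GAGGUAG to be called. Mir568 read 6.99, 7.31 and 7.50 in epididymal cells, against 4.31, 4.51 and 4.32 in bone marrow cells (2.88 ± 0.18), and Mir145a, of smooth muscle, rose by 2.10 ± 0.21. Below background lay all epididymal values of Mir142 and all marrow values of Mir568, so the sizes of both differences are not settled.

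Small nucleolar RNAs were lower in epididymal cells, at 27 of 58 probe sets with 0 higher, a share of 46.6% against 23.0% of all probe sets. Their marrow values came apart by array, with means of 7.95, 6.78 and 6.79 on bone marrow arrays 01, 02 and 03. The count of 27 was not taken without bone marrow array 01, so how far it rests on that array is not settled. Snora73a read 6.58, 7.16 and 7.17 in epididymal cells, against 11.74, 8.43 and 7.73 in bone marrow cells (-2.33 ± 0.63), and without bone marrow array 01 neither it (-1.11) nor Snora73b nor Snord118 was called. The widest range of all called genes in marrow belonged to Usp17ld, a deubiquitinase of a gene family with near-identical copies, at 11.17, 11.68 and 11.97 in epididymal cells, against 5.70, 9.58 and 11.75 in bone marrow cells (2.59 ± 0.87). Micos10, a protein of mitochondrial cristae junctions, read 11.93, 11.48 and 11.49 in epididymal cells, against 7.30, 10.67 and 11.32 in bone marrow cells (1.87 ± 0.65). Usp17ld was not called without bone marrow array 01 (0.94) or without epididymal array 03 (2.41), and Micos10 was not called without bone marrow array 01 (0.63) or without epididymal array 01 (1.72). Usp17ld was also not called when only the 6 arrays (adjusted p = 0.11) or all 36 arrays entered the limma fit (adjusted p = 0.0523), nor was Micos10 with only the 6 arrays (adjusted p = 0.105) or with a term for the set of 8 arrays (0.73). Of 30 protein factors of ribosome biogenesis 2 were called higher and 0 lower, against 2 and 2 without epididymal array 01 and 1 and 1 without bone marrow array 01. Splicing factors gave 1 rise and 5 falls of 35, and the rise, Srsf5, was not called without bone marrow array 01 (0.62). The share called was 6.67% for ribosome biogenesis and 17.1% for splicing factors, both below the 23.0% of all probe sets.

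Other lists held members with large differences in both directions. Glutathione and xenobiotic enzymes gave 19 rises and 3 falls of 34, with Ephx2, an epoxide hydrolase, at 10.72, 10.91 and 10.97 in epididymal cells, against 4.80, 4.67 and 5.19 in bone marrow cells (5.98 ± 0.17), Gsta3, a glutathione transferase, at 5.38 ± 0.23, and Gsr, which regenerates glutathione, at -2.33 ± 0.17. Slc7a11, the cystine importer, read 6.21, 6.24 and 5.94 in epididymal cells, against 10.26, 9.95 and 10.41 in bone marrow cells (-4.07 ± 0.42), whereas Phgdh, the first enzyme of serine synthesis, rose (3.55 ± 0.23). Of 21 heat shock chaperones 10 rose and 1 fell, with the small heat shock proteins Hspb8 at 10.88, 10.82 and 10.76 in epididymal cells, against 5.5, 5.44 and 4.72 in bone marrow cells (5.60 ± 0.20) and Cryab at 4.6 ± 0.17, while Hspa1a, the inducible chaperone, fell (-1.82 ± 0.26). In iron handling 7 of 32 genes rose and 13 fell, with Steap4, a metalloreductase, at 4.24 ± 0.28 and Slc25a37, the mitochondrial iron importer of red cell precursors, at -4.31 ± 0.24. Of 18 clock genes 5 rose and 2 fell, with the repressor Nr1d1 at 11.68, 11.78 and 11.70 in epididymal cells, against 7.60, 7.34 and 7.60 in bone marrow cells (4.21 ± 0.23) and Ciart, another repressor, at -2.30 ± 0.30. Integrins parted by cell type, with Itga7, a laminin receptor, at 5.12 ± 0.21 and Itgb2 and Itga4, of leukocytes, at -3.48 ± 0.25 and -3.95 ± 0.20.

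The same depot comparison was made at other ages and in ob/ob mice. At 14 months 4971 probe sets were called (21.2%), at 18 months 5553 (23.7%) and in ob/ob mice 4288 (18.3%). Of the calls at 6 months 3848 were called in the same direction at 14 months (71.4% of those at 6 months and 77.4% of those at 14 months), and 31 in the opposite direction. With 18 months 4327 were shared (80.3% and 77.9%, 4 opposite), and with ob/ob mice 3090 (57.4% and 72.1%, 57 opposite). The difference between the comparisons was itself tested as an interaction. The depot difference at 6 months differed from that at 14 months at 1256 probe sets (5.37%), from that at 18 months at 723 (3.09%) and from that of ob/ob mice at 2520 (10.8%). These 3 interactions share the 6-month chow arrays. Toward 14 months 485 were more positive at 6 months and 771 more negative, a share of 38.6% that is 53.8% after centring each array on its median (688 and 591), which moves the median over all probe sets to 0.16 against 0.02. The larger part of the interaction came from the epididymal arrays at 1025 of the 1256 probe sets, 541 of the 723 and 2423 of the 2520.

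Immediate early genes, which encode transcription factors and regulators induced within minutes of a stimulus, differed widely between these comparisons. At 6 months on chow 7 of 29 rose and 3 fell (median 0.21), and 5 and 3 without bone marrow array 01 (median -0.08). Bone marrow array 02, the marrow array that lay apart in these genes, was not left out of this count. The depots did not overlap at 9 of the 29 genes, where they did not at 48.0% of all probe sets. At 14 months 2 rose and 23 fell (median -1.81), at 18 months 3 rose and 7 fell (median -0.39), and in ob/ob mice 1 rose and 23 fell (median -2.10). The interaction was called at 21 of 29 genes with a more positive difference at 6 than at 14 months, and at 1 the other way. Their mean on an array was 9.90, 9.86 and 9.84 in epididymal cells at 6 months, and 7.81, 8.23 and 8.24 at 14 months. In bone marrow cells the mean was 9.09, 10.12 and 9.13 at 6 months, and 9.75, 9.77 and 10.00 at 14 months. The epididymal pools at 6 months thus lay above those of 14 and 18 months and of ob/ob mice, and the marrow pools of the 6-month group lay apart from each other, array 02 being highest.

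Fosb, a subunit of the factor AP-1, read 12.50, 12.39 and 12.49 in epididymal cells, against 9.19, 12.08 and 9.45 in bone marrow cells at 6 months on chow (2.22 ± 0.54). At 14 months it read 6.89, 8.88 and 9.29 in epididymal cells and 10.48, 10.24 and 10.52 in bone marrow cells, and in ob/ob mice 7.81, 6.30 and 5.59 in epididymal cells and 11.94, 11.87 and 11.64 in bone marrow cells. Egr2, a zinc finger factor, read 10.65, 10.53 and 10.62 in epididymal cells, against 6.34, 7.62 and 6.37 in bone marrow cells at 6 months, and 7.04, 7.45 and 7.55 in epididymal cells and 8.66, 8.28 and 8.67 in bone marrow cells at 14 months (interaction 5.02 ± 0.34). Both genes were highest in the epididymal cells of 6-month chow mice. Nr4a3, a nuclear receptor of the same class of early genes, fell already at 6 months (-1.59 ± 0.24). Some inflammatory genes were also higher in epididymal cells at 6 than at 14 months. Ptx3, a pentraxin of innate immunity, read 11.25, 11.46 and 11.45 in epididymal cells at 6 months and 5.36, 5.47 and 5.23 at 14 months. Cxcl10 read 11.78, 11.96 and 11.89 at 6 months and 7.33, 7.21 and 6.86 at 14 months in epididymal cells, and Cxcl1 read 11.16, 11.48 and 11.30 at 6 months and 6.55, 6.88 and 6.93 at 14 months.

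**Figure D5:**
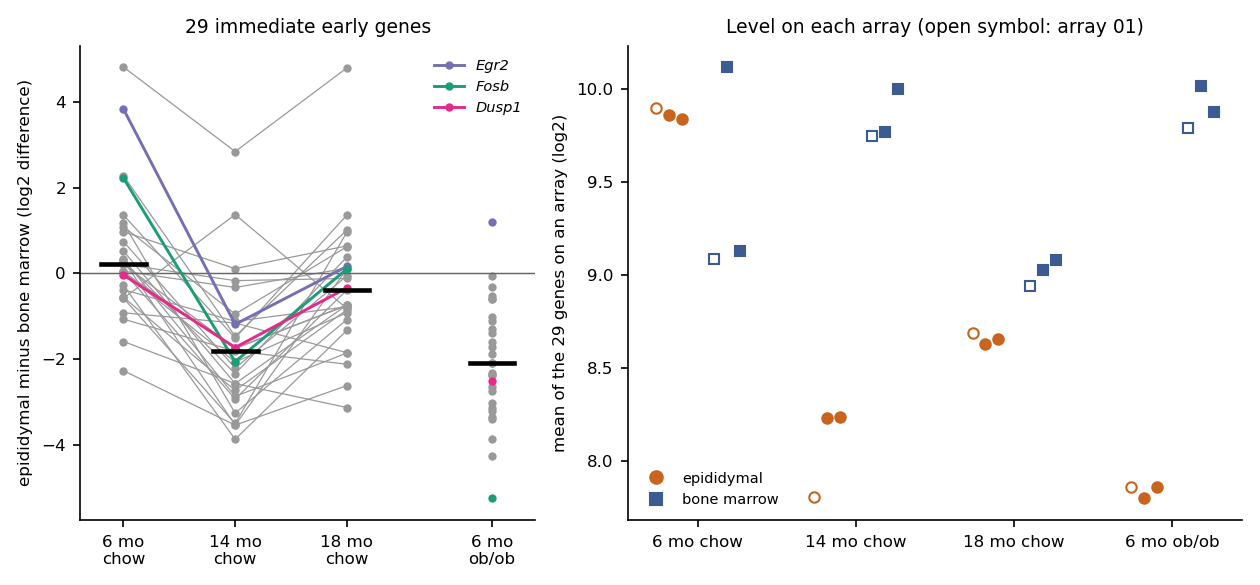
Left, epididymal minus bone marrow difference (log2) of 29 immediate early genes on chow at 6, 14 and 18 months and in ob/ob mice at 6 months, with lines joining a gene across ages and black bars at the medians (0.21, -1.81, -0.39 and -2.10). Right, the mean of these genes on each array (log2), with epididymal arrays as orange circles and bone marrow arrays as blue squares. The epididymal arrays lie at 9.84 to 9.90 in 6-month chow mice and at 7.81 to 8.24 at 14 months.

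The depot difference of macrophage markers varied with age and genotype. Of the 16 markers 4 rose and 10 fell at 6 months on chow, 5 rose and 4 fell at 14 months, 0 rose and 13 fell at 18 months, and 9 rose and 2 fell in ob/ob mice. Their mean in epididymal cells was 7.30, 7.30 and 7.24 at 6 months, 9.09, 8.69 and 8.58 at 14 months, 6.14, 6.11 and 6.21 at 18 months, and 8.78, 9.25 and 9.17 in ob/ob mice. Those of bone marrow cells stayed between 7.90 and 8.85 over the same groups. The interaction was called at 9 markers with a more negative difference at 6 than at 14 months (1 the other way), at 9 with a more positive difference at 6 than at 18 months, and at 11 with a more negative difference in wild-type than in ob/ob mice. Of the endothelial markers 8 of 13 were higher in epididymal cells at 6 months and 13 of 13 at 14 months, and the interaction was called at 10 of them, with the larger difference at 14 months. Of the mature adipocyte markers 16 of 16 rose at each age, with medians of 4.76, 5.10 and 5.46 at 6, 14 and 18 months, and 0 interactions with age were called.

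Metabolic lists parted in how their depot difference in wild-type mice stood to that in ob/ob mice. The interaction was called, with a more positive difference in wild-type mice, at 11 of 16 mature adipocyte markers, 16 of 23 genes of branched-chain amino acid catabolism, 14 of 23 of fatty acid synthesis (1 the other way), 10 of 16 of lipolysis, 9 of 20 of triglyceride synthesis and 9 of 22 of insulin signaling (3 the other way), where 10.8% of all probe sets were called in either direction. The count for branched-chain amino acid catabolism was 12 without bone marrow array 01 and 14 without ob/ob bone marrow array 03. Beta-oxidation had 8 of 23 (1 the other way), and 5 without ob/ob bone marrow array 03. Fewer members were called at other lists. The tricarboxylic acid cycle had 3 of 28 (5 without bone marrow array 01) and the respiratory chain 4 of 52 (6 without bone marrow array 01). Cholesterol synthesis had 3 of 19 (1 without bone marrow array 01). Fatty acid uptake had 3 of 16 (1 the other way) and glycolysis 3 of 19 (1 the other way). With all arrays the respiratory chain lay somewhat below the 10.8% of all probe sets, but near it without bone marrow array 01 (6 of 52). The other lists were near or above that share with all arrays. The median of glycolysis was 0.02 in wild-type and 0.32 in ob/ob mice. Adipocyte markers averaged 12.55, 12.56 and 12.56 in epididymal cells of wild-type mice and 10.47, 11.22 and 11.28 in those of ob/ob mice. In bone marrow cells they averaged 7.35, 7.36 and 7.11 in wild-type mice and 7.37, 8.39 and 7.80 in ob/ob mice. Cyp2e1 read 12.83, 12.96 and 12.94 in epididymal cells of wild-type mice and 5.66, 7.62 and 7.05 in those of ob/ob mice (interaction 7.57 ± 0.80). Thrsp read 11.88, 11.75 and 11.66 in epididymal cells of wild-type mice and 5.82, 8.50 and 8.75 in those of ob/ob mice. In the other direction Gpnmb, a lysosomal glycoprotein of lipid-laden macrophages, read 7.96, 8.21 and 8.20 in epididymal cells of wild-type mice and 12.10, 12.74 and 12.94 in those of ob/ob mice (interaction -5.17 ± 0.45). Cell cycle genes fell in all 32 in ob/ob mice as well, and the median was -3.58 in wild-type mice and -2.72 in ob/ob mice.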

How the data were processed

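RNA of isolated adipocytes was hybridized to Affymetrix Mouse Gene 1.0 ST arrays. The values deposited by the authors are log2 summaries of each probe set, made in Partek Genomics Suite as gcRMA with quantile normalization by their methods. RMA and GCRMA both stand in the labels, and the genome build is not given in the sources used here. The values, from 1.93 to 14.63, were used with no further scaling; background, scanner intensity and cross-hybridization cannot be recovered from them.

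Of 35556 probe sets 23410 have a gene symbol and were tested, 1621 of them with several symbols, which were counted and not named; 12146 have none. A gene with several probe sets is given by 1 of them, the probe set with the highest mean over the 30 arrays of the model below. The 30 arrays of 10 groups (both depots on chow and high-fat diet at 6 and 14 months, and of ob/ob mice) entered a linear model of group means (R 4.3.3, limma 3.58.1, 20 residual and 6.36 prior degrees of freedom), and contrasts were adjusted by Benjamini-Hochberg over all 23410 probe sets. For the 18-month arrays the model held all 36 arrays. With 3 pools a group, p-values measure the spread between pools.

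The members and the 61 lists were chosen with earlier results of these data known, and 1266 of 1390 list genes have a probe set. Named genes are the 15 largest rises and falls among called probe sets with depots that do not overlap, the 3 largest rises and falls of a list, the 10 largest of each interaction, list members described by their role, and the 5 widest ranges in each depot. Genes without a probe set in the table are not analysed here. The depot comparison was tested on simulated data of 23410 probe sets. It recovered 65 of 67 that differed by log2 1.5, 67 of 67 at log2 2 and 66 of 66 at log2 3, and called 1 of 23210 unchanged ones. The simulated noise was independent between probe sets, and most probe sets were unchanged. Shifts of many genes on 1 array, as on the arrays that stand apart, were not simulated. The counts therefore do not give the error rate of the real data.

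Alternatives were quantile normalization, centring, no moderation, array weights, other sets of arrays and probe sets, other fold minimums, a replicate block, a term for the set of 8 arrays, and leaving out each array. Fits without epididymal array 01 and bone marrow array 01 together, the list counts without them, and the ob/ob comparison without ob/ob bone marrow array 03, were added after seeing the data.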

Additional observations from a re-analysis of the deposited data

Results flagged for a closer look

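The depot difference of 9 genes is given here because the test of the interaction called it between 2 groups of mice, each value being the depot difference in 6-month chow wild-type mice minus that of the other group. Against 14 months the largest were Ptx3 at 6.15 ± 0.75 (adjusted p = 2.06e-06), Cxcl10 at 5.99 ± 0.28 (adjusted p = 2.81e-14) and Fabp9 at 5.76 ± 0.25 (adjusted p = 8.43e-15, limma with Benjamini-Hochberg adjustment). Fabp9 read 9.29, 9.81 and 10.26 in epididymal cells at 6 months and 4.0, 3.89 and 4.33 at 14 months, the last at or below background.

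Against 18 months they were Eid3 at 4.53 ± 0.49 (adjusted p = 2.62e-07), Cd163 at 3.86 ± 0.43 (adjusted p = 4.06e-07) and Vsig4 at 3.84 ± 0.69 (adjusted p = 0.000521). Vsig4, a complement receptor of resident macrophages, read 4.39, 4.63 and 4.54 in epididymal cells at 6 months and 4.11, 3.94 and 4.14 at 18 months, all at or below background. In bone marrow cells Vsig4 read 4.28, 4.0 and 4.70 at 6 months, at or below background as well, and 7.29, 8.53 and 7.34 at 18 months. Cd163 read 7.84, 7.97 and 7.92 in epididymal cells at 6 months and 5.51, 5.33 and 5.61 at 18 months. The 18-month arrays form a grouping of their own in the table, so age and that grouping cannot be told apart.

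Against ob/ob mice they were Cyp2e1 at 7.57 ± 0.80 (adjusted p = 8.12e-08), Fosb at 7.47 ± 0.77 (adjusted p = 4.95e-08) and Atp6v0d2 at -5.87 ± 0.66 (adjusted p = 1.7e-07). Atp6v0d2, part of the proton pump of osteoclast and macrophage lysosomes, read 5.90, 6.39 and 5.79 in epididymal cells of wild-type mice and 9.91, 11.43 and 11.87 in those of ob/ob mice. The groups hold 3 arrays each, too few for a test of single arrays that lie apart.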

How the results depend on the processing

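The depot comparison on chow at 6 months called 5386 probe sets, and between 5362 and 5502 when each of its 6 arrays was left out in turn. Quantile normalization, centring, no moderation, array weights, the term for the set of 8 arrays, other sets of arrays, all probe sets of the table and 1 probe set per gene kept the count within 1.5 times. With no fold minimum it was 10449 and at 4-fold or more 2110. The interaction with 14 months (1256) was 2126 with no fold minimum and 270 at 4-fold or more, and 1175 to 1462 with arrays left out. That with 18 months (723) was 1536, 84 and 589 to 1001, and 1246 over all probe sets of the table, of which 67.7% were more positive at 6 months against 49.5%. That with ob/ob mice (2520) was 4633, 655 and 2428 to 2928, the highest without ob/ob bone marrow array 03. The arrays left out of the interactions were those of 6-month chow mice and this one. No 14-month, 18-month or epididymal ob/ob array was left out singly. Epididymal ob/ob array 01, with adipocyte markers at 10.47 against 11.22 and 11.28 on arrays 02 and 03, thus stayed in each fit of the ob/ob interaction. The calls shared with 14 months (3848) were 7912 with no fold minimum. Apart from these counts, 300 results on named genes had 5284 alternatives, of which 73, all of the depot difference, were no longer past the threshold and 0 reversed. They include Usp17ld, Snord118, Micos10, Snora73a and Snora73b without bone marrow array 01.

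Pools of the same number did not deviate together (correlations of -0.073, 0.029 and -0.135 for numbers 1, 2 and 3), and they were not taken as pairs. With 3 pools a depot and arrays that stand apart, these correlations cannot show whether such pools shared animals. With the replicate block the counts were 5386 for the depots and 1271, 752 and 2526 for the interactions with 14 months, 18 months and ob/ob mice. The 3 pools a group limit what can be seen, and values at background have no order.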

Other observations

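Further lists that belong to no passage of the report also held members that parted the depots. Retinoid metabolism gave 9 rises and 3 falls of 26, with Retsat, a retinol saturase of fat, at 3.89 ± 0.17, Aldh1a7, an aldehyde dehydrogenase, at 4.18 ± 0.34 and Rdh12, a retinol dehydrogenase, at -3.48 ± 0.24. Lysosomal enzymes gave 8 rises and 7 falls of 37. Ctsl, the protease cathepsin L, read 11.34, 11.12 and 11.35 in epididymal cells, against 8.44, 9.22 and 8.83 in bone marrow cells (2.44 ± 0.19), and Ctsh, a cathepsin of leukocytes and lung, differed by -2.18 ± 0.17. Steroid enzymes and receptors gave 5 rises and 1 fall of 18, with Sult1e1, an estrogen sulfotransferase, at 7.32, 7.63 and 7.55 in epididymal cells, against 2.82, 3.17 and 3.33 in bone marrow cells (4.40 ± 0.24) and Esr1, the estrogen receptor alpha, at 1.92 ± 0.17. The marrow values of Sult1e1 were all below background, so the size of its difference is not settled. Channels and transporters gave 5 rises and 4 falls of 21, with Kcnj15, an inward rectifier, at 4.36 ± 0.20 and Kcnn4, a calcium-activated channel of blood cells, at -3.03 ± 0.28. Genes of the endoplasmic reticulum and integrated stress gave 4 rises and 5 falls of 28, and the median was 0.04 against 0.05 over all probe sets. The share called was 33.3% for the steroid list and 32.1% for this last list, against 23.0% of all probe sets.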
